A study of Mus musculus with 12 samples.

Results

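A set of 9 genes that move, store and control iron were followed in the livers of wild-type (WT) mice and mice that lack Bmal1 in the liver (KO). They were chosen by symbol, and each was represented by its transcript row with the highest mean value over the samples. All 9 symbols were found among 22322 gene symbols, on 14 transcript rows, and all 9 passed the filter that left 10799 genes for testing. The genes are Hamp and Hamp2, which encode hepcidin and its close homologue; Hfe2, Hfe and Tfr2, which encode membrane proteins that act on hepcidin; Tfrc, the transferrin receptor; Slc40a1, the iron exporter ferroportin; and Fth1 and Ftl1, the heavy and light chains of ferritin.

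Liver RNA was sequenced in 4 groups of 3 samples, WT and KO at circadian time 0 (CT0, when lights would come on) and circadian time 12 (CT12). By the labels all mice were C57BL/6 and 8 weeks old, and they were males, fed freely and held in constant darkness for the last days after a light-dark schedule. WT mice carried a Bmal1 gene flanked by loxP sites on both alleles, and KO mice carried the same alleles together with CRE recombinase under a liver-specific promoter, which removes exon 8. No CRE was stated for the WT mice, so an effect of CRE and of the loss of Bmal1 cannot be told apart. The labels name 2 mice for each genotype and time while 3 samples were deposited. The published methods give as many mice as samples, so the sources differ, and p-values measure the spread between these samples, which may in part be technical.

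Iron enters the blood through ferroportin on macrophages, enterocytes and hepatocytes. Hepcidin, a peptide hormone made by hepatocytes, binds ferroportin and causes its degradation, so a high hepcidin level lowers plasma iron. Hemojuvelin, the product of Hfe2, is a co-receptor for bone morphogenetic proteins, whose signal through SMAD proteins switches on Hamp, while HFE and transferrin receptor 2 act as sensors of transferrin-bound iron upstream of Hamp. Inside the cell, the iron regulatory proteins bind hairpins called iron-responsive elements: at the start of a transcript they block its translation, and behind the coding sequence of Tfrc they protect the transcript from decay.

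Iron-responsive elements found in the members are shown because they mark transcripts that are also controlled by iron after transcription. At that layer protein output can change with no change in the RNA level measured here. The untranslated regions of GENCODE vM1 transcripts were searched on the transcript strand for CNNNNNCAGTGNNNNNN, with the 5 bases after the first C required to pair with the last 5 bases at no fewer than 4 of 5 positions, where G may pair with T. In the lines that follow, each site is given with 29 bases, 5′ to 3′, and capitals mark the loop of 6 bases.
Fth1: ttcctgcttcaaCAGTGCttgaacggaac
Ftl1: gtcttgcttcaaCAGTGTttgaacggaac
Slc40a1: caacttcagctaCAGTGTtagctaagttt
Tfrc site 1: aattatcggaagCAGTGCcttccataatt
Tfrc site 2: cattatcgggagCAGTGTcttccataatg
Tfrc site 3: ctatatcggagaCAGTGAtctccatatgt
Tfrc site 4: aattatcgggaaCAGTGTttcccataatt
On the NCBIM37 (mm9) build, the Fth1 site lies at chr19:10057222-10057250 on the plus strand, the Ftl1 site at chr7:52715149-52715177 on the minus strand and the Slc40a1 site at chr1:45982310-45982338 on the minus strand, each in the 5′ untranslated part of exon 1. The 4 Tfrc sites lie between chr16:32631305-32631333 and chr16:32631796-32631824 on the plus strand, in the 3′ untranslated part of exon 19 of the longest transcript. All 7 sites had 5 of 5 stem positions paired. A match of the letters with 4 or 5 of 5 positions paired was found in 0.62% of 38236 annotated 5′ untranslated regions. The share was 3.1% of 34657 annotated 3′ untranslated regions, and a match is given as a description only. Elements that differ from these letters would not be found by this search.

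Hamp and Hamp2 are neighbours on the minus strand of chromosome 7, at chr7:31727390-31729036 and chr7:31707391-31709200, with 3 exons each. The last 75 coding bases of each, which are in exon 3 and encode the mature peptide, are given as a stretch where these genes differ. Capitals mark the 14 bases that differ.
Hamp, chr7:31727499-31727573: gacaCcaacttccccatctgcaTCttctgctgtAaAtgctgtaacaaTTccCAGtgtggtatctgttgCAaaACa
Hamp2, chr7:31707530-31707604: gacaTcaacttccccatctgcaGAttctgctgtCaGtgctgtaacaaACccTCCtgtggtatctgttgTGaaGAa
The aligned coding sequences were 92.5% identical, with 236 of 255 columns alike. The longest run without a difference was 80 bases and is not in the stretch shown. Reads from such a run may be counted for the wrong gene. How reads that match both genes were counted is not given in the sources used here, so the separate values of Hamp and Hamp2 are uncertain.

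Values are RPKM, read numbers divided by transcript length and by the sequencing depth, so levels of different genes can be compared per length. The depth recovered from the steps between low values ran from 11460000 reads in the shallowest sample to 19020000 in the deepest. As a check of the labels, Arntl, which encodes BMAL1, was 15.9 ± 0.37 RPKM in WT and 6.37 ± 0.94 RPKM in KO at CT0, and 1.05 ± 0.32 RPKM in WT and 3.99 ± 0.39 RPKM in KO at CT12 (SD, n = 3 each). Arntl was therefore lower in KO at CT0, by 1.21 on the log2 scale, and higher at CT12, by 1.29 (limma adjusted p = 5.8e-04 and 6.3e-05), so the check holds at CT0 and goes against a plain loss of the transcript at CT12. Values were given per transcript and the deleted exon could not be read on its own, so KO refers throughout to the libraries so labelled. Hepatocyte markers were at high levels in every sample, with a summed level over 8 markers of 40234 to 56184 RPKM in WT and 30747 to 40003 RPKM in KO. Of these 8 markers, 1 was lower in KO at each time and 1 was higher at CT12, where 1.86% and 10.5% of tested genes were called at CT0 and CT12. Their median log2 difference was -0.10 at CT0 and 0.17 at CT12, so at CT12 the lower sum was not shared by all 8. Their part in the differences between genotypes was not tested.

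Ferritin light chain and hepcidin were the most abundant of the 9 transcripts and Tfrc and hemojuvelin the least. Mean levels of Ftl1 lay between 1221 and 1400.4 RPKM in the 4 groups and those of Hamp between 596 and 1127 RPKM. Fth1 followed in all 4 groups with means of 282 to 326 RPKM, and Tfr2 had means of 135 to 154 RPKM. Hamp2 had means of 47.5 to 175 RPKM, Slc40a1 of 41.3 to 43.4 RPKM and Hfe of 23.1 to 32.8 RPKM. Hfe2 and Tfrc lay lowest, with means of 13.4 to 24.9 RPKM and 9.72 to 16.5 RPKM. Among neighbours in this order, Ftl1 and Hamp overlapped between samples in WT at CT0 and KO at CT12. Hamp2 overlapped Tfr2 in both genotypes at CT0, Fth1 in KO at CT0, and Slc40a1 in WT at both times and in KO at CT12. Hfe overlapped Hfe2 in WT at CT0 and Tfrc in WT at CT12, and Hfe2 overlapped Tfrc in both genotypes at CT12. Other neighbours did not overlap.

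**Figure D1:**
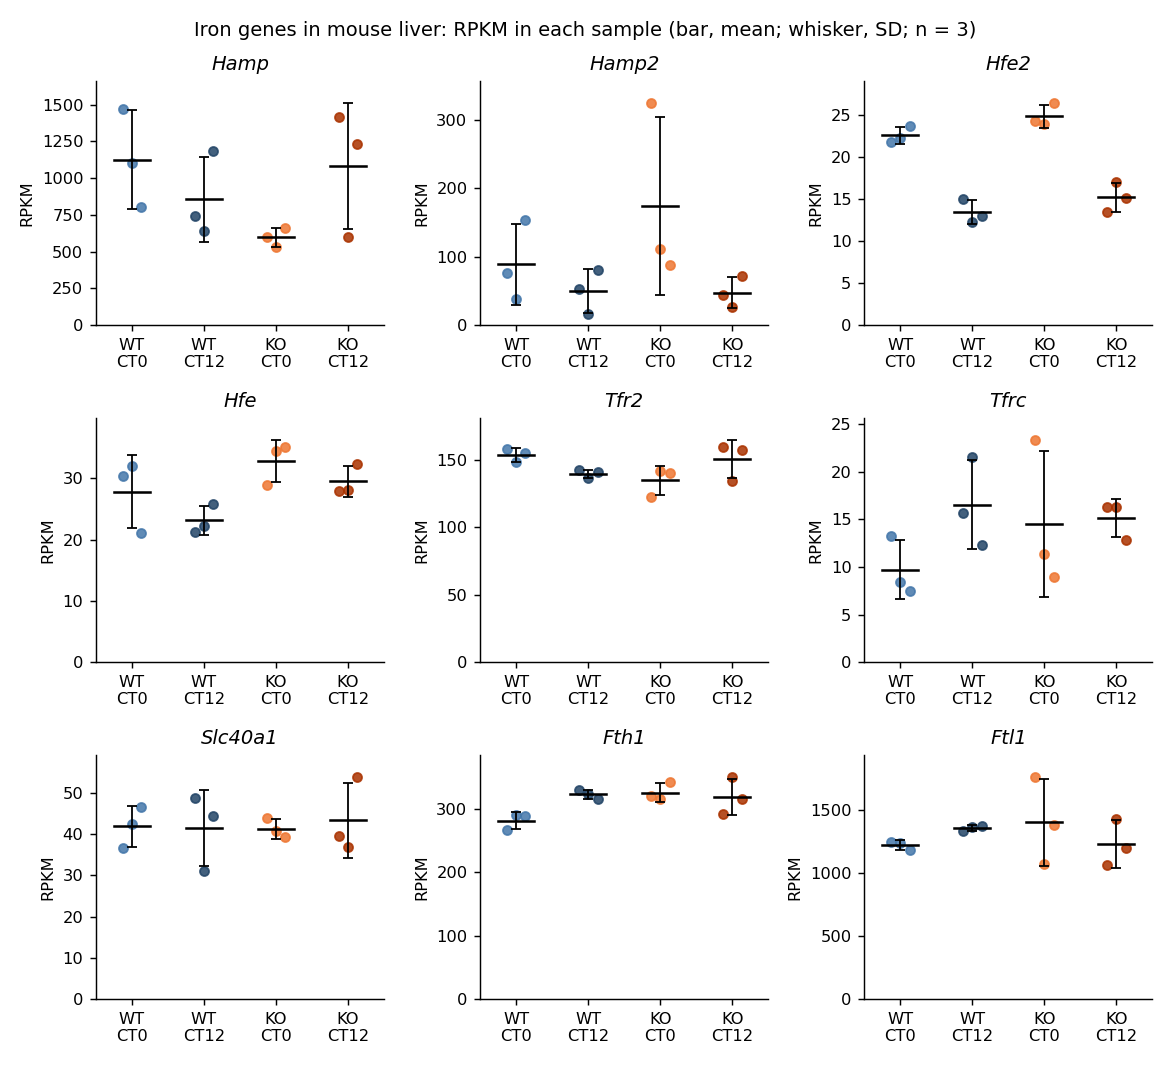
RPKM of the 9 iron genes in each of the 12 samples, with 1 panel per gene and its own linear axis from 0; points are samples, bars are means and whiskers are SD (n = 3). Hfe2 is lower in all 6 CT12 samples (12.3 to 17.04 RPKM) than in all 6 CT0 samples (21.8 to 26.5 RPKM), whereas no other panel separates the times in both genotypes.

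The first question was which iron genes changed between CT0 and CT12. Hfe2, hemojuvelin, was the only one of the 9 that passed the test, and it fell from CT0 to CT12 in both genotypes. In WT at CT0, Hfe2 was 21.8, 22.3 and 23.7 RPKM, and at CT12 it was 15.03, 12.3 and 13.02 RPKM. In KO it was 24.3, 23.9 and 26.5 RPKM at CT0 and 13.5, 17.04 and 15.2 RPKM at CT12. Every CT12 sample lay below every CT0 sample within and across genotypes, and at least 353 reads stood behind each value. On the log2(RPKM + 1) scale the change was -0.71 (SE 0.10, limma adjusted p = 9.5e-04) in WT and -0.68 (SE 0.10, limma adjusted p = 0.0081) in KO, and over both genotypes it was -0.70 (SE 0.072, limma adjusted p = 8.6e-05). The fall in KO did not pass when the fit held only the 6 KO samples (adjusted p = 0.058).

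Hfe2 is annotated at chr3:96329108-96333139 on the plus strand, with 4 exons. One of 9 members was thus called for time in WT, where 11.6% of all tested genes were called, 1 of 9 for time in KO, where 2.43% were called, and 1 of 9 for time over both genotypes, where 16.6% were called. The change of Hfe2 with time differed between genotypes by 0.04 (95% interval -0.28 to 0.35, limma adjusted p = 0.95). Its level in KO exceeded that in WT by 0.13 at CT0 (95% interval -0.09 to 0.35) and 0.17 at CT12 (95% interval -0.05 to 0.39). Neither difference passed (limma adjusted p = 0.62 and 0.34). The 3 genes most like Hfe2 over the 12 samples, as a description, were Pkm, a glycolytic enzyme, Actb, a cytoskeletal actin, and Bbc3, an inducer of cell death, with Pearson's r of log2 values of 0.98, 0.97 and 0.96.

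**Figure D2:**
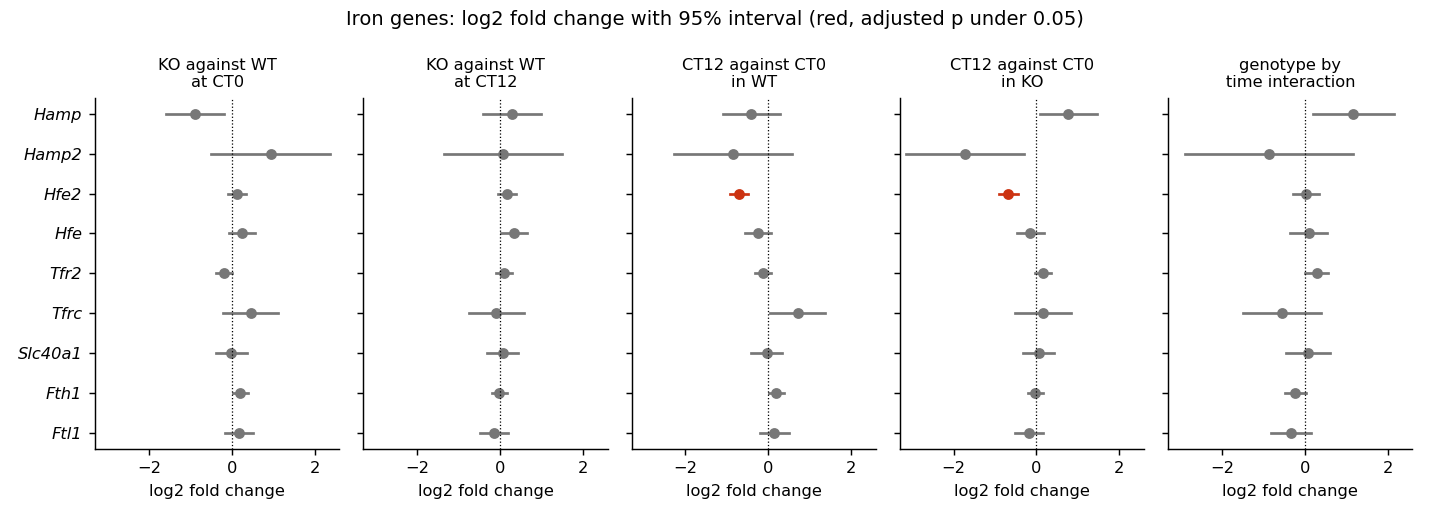
Log2 fold change of each iron gene on the log2(RPKM + 1) scale in 4 comparisons of groups and in the interaction; points are estimates, lines are 95% intervals before adjustment, and red marks an adjusted p under 0.05. Hfe2 alone is red, at -0.71 in WT and -0.68 in KO for CT12 against CT0, and the intervals of Hamp2 are the widest.

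The second question was which iron genes differed between KO and WT. None of the 9 passed at CT0, where 1.86% of tested genes were called, none at CT12, where 10.5% were called, and none for genotype over both times, where 11.5% were called. The interaction of genotype and time was called for none of them either, against 1.49% of tested genes. At an unadjusted limma p under 0.05 there were 2 members at CT0 (Fth1 and Hamp), 1 at CT12 (Hfe), 1 over both times (Hfe) and 2 for the interaction (Hamp and Tfr2), where 14.2%, 24.9%, 25.4% and 12.3% of tested genes were under that limit. An unmoderated model with unadjusted p gave 2 members at CT0 (Fth1 and Tfr2), 0 at CT12 and 1 over both times (Hfe). For the interaction it gave 2 (Fth1 and Tfr2), and Hamp was under the limit in none of these. Of the 10799 tested genes it called 1495, 2618, 2620 and 1323 in the same order. With 3 samples a group, a difference that did not pass is not shown to be absent, and the 95% intervals are therefore given for each gene.

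Hepcidin, Hamp, had the most negative estimate of the 9 genes for KO against WT at CT0. It was 1473, 1106 and 801 RPKM in WT and 598, 532 and 659.8 RPKM in KO. All 3 KO samples lay below all 3 WT samples, and the log2 difference of -0.88 (95% interval -1.58 to -0.18) did not pass (limma adjusted p = 0.22). At CT12, Hamp was 743, 638 and 1185 RPKM in WT and 1413, 599 and 1234 RPKM in KO, and the groups overlapped (log2 difference 0.30, 95% interval -0.40 to 0.996, limma adjusted p = 0.62). From CT0 to CT12 the estimate was -0.41 in WT (95% interval -1.10 to 0.29, limma adjusted p = 0.45) and 0.77 in KO (95% interval 0.07 to 1.47, limma adjusted p = 0.21). The interaction was 1.18 (SE 0.45, 95% interval 0.19 to 2.16, limma adjusted p = 0.30). With single samples left out, the log2 difference of KO from WT ran from -1.10 to -0.66 at CT0 and from 0.06 to 0.68 at CT12, and the interaction from 0.94 to 1.56.

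Adding the RPKM of Hamp and Hamp2 gave 1548, 1143 and 955 RPKM in WT and 922, 643 and 748 RPKM in KO at CT0. How shared reads were counted is not given, so this sum may hold some of them more than once. The groups again did not overlap at CT0, and the log2 difference was -0.64 (limma adjusted p = 0.39). Hamp was most like Fgl1, a protein secreted by hepatocytes, Pramef8 and Tanc2 over the 12 samples (Pearson's r 0.83, 0.78 and 0.77, as a description).

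Hamp2 varied most between samples of a group. In WT it was 75.6, 37.8 and 154 RPKM at CT0 and 53.3, 16.5 and 80.4 RPKM at CT12. The KO values were 325, 111 and 88.4 RPKM at CT0 and 43.8, 26.4 and 72.2 RPKM at CT12. Replicate 1 of KO at CT0 stood far above all other samples, and the SD was 48.6% to 74.7% of the mean in each group. The KO samples at CT12 lay below those at CT0, with a log2 difference of -1.73 (95% interval -3.16 to -0.29, limma adjusted p = 0.18). Over both genotypes the difference between times was -1.29 (SE 0.46, limma adjusted p = 0.078). Between genotypes the intervals ran from -0.49 to 2.37 at CT0 and from -1.36 to 1.503 at CT12, and both held values on either side of 0.

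The ratio of Hamp to Hamp2 within a sample was 1.84, 4.80 and 7.46 in KO at CT0, 5.22 to 29.3 in WT at CT0, 13.9 to 38.6 in WT at CT12 and 17.1 to 32.3 in KO at CT12. The lowest ratio of all 12 samples was in replicate 1 of KO at CT0. The genes most like Hamp2 were Slc6a12, a betaine transporter, Cd36, a fatty acid transporter, and Cideb, a lipid droplet protein (Pearson's r 0.93, 0.92 and 0.90, as a description).

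Hfe, an MHC class I-like protein mutated in hereditary haemochromatosis, had higher means in KO at both times. In WT it was 30.4, 32.0 and 21.1 RPKM at CT0 and 21.3, 22.2 and 25.9 RPKM at CT12. In KO it was 28.9, 34.4 and 35.0 RPKM at CT0 and 28.0, 28.1 and 32.3 RPKM at CT12. The groups overlapped at CT0, and at CT12 all KO samples lay above all WT samples. The log2 difference was 0.25 at CT0 (95% interval -0.07 to 0.56, limma adjusted p = 0.49), 0.34 at CT12 (95% interval 0.02 to 0.66, limma adjusted p = 0.17) and 0.29 over both times (SE 0.10, limma adjusted p = 0.093). When all 4 transcript rows of Hfe were summed, the difference over both times was 0.32 and passed (limma adjusted p = 0.047). The row used, Hfe-004, is 516 bases long with 168 to 314 reads, and lies at chr13:23796255-23802583 on the minus strand.

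The 4 rows of Hfe moved in parallel between groups. Hfe-001, of 1766 bases and 6 exons, had means of 20.4 ± 3.29 and 16.9 ± 1.31 RPKM in WT at CT0 and CT12, and of 24.7 ± 1.098 and 21.98 ± 1.49 RPKM in KO (SD, n = 3). In Hfe-001 all KO samples lay above all WT samples at each time, at 23.8 to 25.9 against 16.6 to 22.8 RPKM at CT0 and 20.9 to 23.7 against 15.9 to 18.4 RPKM at CT12. These rows share exons and may share reads, so they are not independent measurements. Hfe was most like Hist1h4i, a histone, Rps13, a ribosomal protein, and Dek, a chromatin protein (Pearson's r 0.90, 0.90 and 0.89, as a description).

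**Figure D3:**
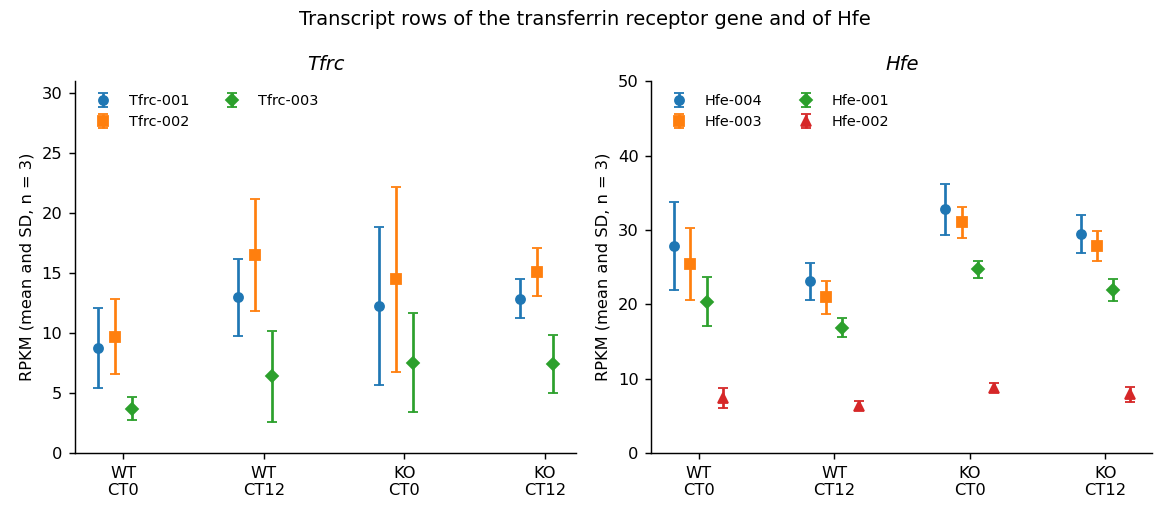
RPKM of the 3 transcript rows of Tfrc and the 4 of Hfe in the 4 groups; points are means and whiskers are SD (n = 3), on linear axes from 0. The rows of each gene keep their order in all 4 groups, and Hfe-004 and Hfe-003 lie close together, at 32.8 and 31.04 RPKM in KO at CT0.

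Transferrin receptor 2, Tfr2, is made mainly by hepatocytes and its level per length was 5.26 to 20.8 times that of Tfrc within a sample. It was 158, 148 and 155 RPKM in WT and 122, 141 and 140.4 RPKM in KO at CT0, without overlap. At CT12 it was 142, 136 and 141 RPKM in WT and 159.5, 134 and 157 RPKM in KO, with overlap. The WT samples at CT12 all lay below those at CT0, while the KO samples overlapped between times. The log2 change with time was -0.13 in WT (95% interval -0.33 to 0.06) and 0.15 in KO (95% interval -0.04 to 0.35). Neither change passed (limma adjusted p = 0.36 for each). The log2 difference of KO from WT was -0.19 at CT0 (95% interval -0.38 to 0.00, limma adjusted p = 0.36) and 0.10 at CT12 (95% interval -0.09 to 0.29, limma adjusted p = 0.54). Its interaction, 0.29 (95% interval 0.02 to 0.56), did not pass (limma adjusted p = 0.37). Tfr2 is annotated at chr5:138011079-138028709 on the plus strand, with 20 exons.

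The genes most like Tfr2 were Kng2, a kininogen, Id1, an inhibitor of DNA binding that bone morphogenetic proteins induce, and Znhit3 (Pearson's r 0.90, 0.85 and 0.85, as a description). Id1 was 2.55, 4.67 and 4.75 RPKM in WT at CT0, 2.59, 1.90 and 3.27 RPKM in WT at CT12, 1.08, 2.48 and 2.43 RPKM in KO at CT0, and 5.35, 1.29 and 6.58 RPKM in KO at CT12. Id1 passed in no comparison. For KO against WT the limma adjusted p was 0.42 at CT0 and 0.54 at CT12, and for the interaction it was 0.42.

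Tfrc, which takes up transferrin-bound iron in most cells, varied widely. In WT it was 13.3, 8.45 and 7.45 RPKM at CT0 and 15.6, 21.6 and 12.3 RPKM at CT12, with 1 pair of samples overlapping. In KO it was 23.3, 11.3 and 8.91 RPKM at CT0 and 16.3, 16.2 and 12.8 RPKM at CT12. The log2 change from CT0 to CT12 was 0.71 in WT (95% interval 0.05 to 1.38, limma adjusted p = 0.16) and 0.16 in KO (95% interval -0.51 to 0.82, limma adjusted p = 0.82). KO differed from WT by 0.46 at CT0 (95% interval -0.20 to 1.13, limma adjusted p = 0.55) and by -0.09 at CT12 (95% interval -0.76 to 0.57, limma adjusted p = 0.89). Replicate 1 of KO at CT0 was the highest of all 12 samples, and without it the CT0 difference was 0.08 and the rise over both genotypes, 0.62, passed (limma adjusted p = 0.028).

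The row used for Tfrc, Tfrc-002 at chr16:32609069-32623827, ends before the 3′ untranslated region in which the 4 sites were found. The full-length row, Tfrc-001 of 4890 bases, contains them and had means of 8.81 ± 3.34 and 12.996 ± 3.20 RPKM in WT at CT0 and CT12, and of 12.3 ± 6.57 and 12.9 ± 1.61 RPKM in KO (SD, n = 3). Both rows had the lowest mean in WT at CT0. Tfrc was most like Vkorc1l1, a vitamin K epoxide reductase, Slmo2 and Dhx33, an RNA helicase (Pearson's r 0.96, 0.93 and 0.91, as a description).

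Ferroportin, Slc40a1, showed no difference between any groups larger than the spread. It was 36.7, 42.3 and 46.7 RPKM in WT at CT0 and 48.8, 31.1 and 44.5 RPKM in WT at CT12. In KO it was 43.9, 40.6 and 39.3 RPKM at CT0 and 39.6, 36.8 and 53.7 RPKM at CT12. All groups overlapped, and the 4 log2 differences between groups lay between -0.03 and 0.07. Their 95% intervals reached no further than -0.41 and 0.44. Ferroportin is annotated at chr1:45964915-45982439 on the minus strand, with 8 exons. In liver it is also made by Kupffer cells, the resident macrophages, for which 11 markers summed to 229 to 297 RPKM in WT at CT0, 143 to 211 RPKM in WT at CT12, 203 to 295 RPKM in KO at CT0 and 154 to 259 RPKM in KO at CT12. Of these markers 2 fell with time in WT, where 11.6% of tested genes were called, and none passed in the other 3 comparisons of groups. Over both genotypes 6 of 11 were lower at CT12, where 16.6% of tested genes were called. In whole tissue, fewer cells of a type and less RNA per cell cannot be told apart.

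Ferritin heavy chain, Fth1, the subunit that oxidises iron for storage, was lowest in WT at CT0. It was 266, 291 and 288 RPKM in that group and 329.7, 323 and 316 RPKM in WT at CT12. Those in KO were 319.7, 315 and 343 RPKM at CT0 and 292, 349.5 and 315 RPKM at CT12. Neither the WT samples at CT12 nor the KO samples at CT0 overlapped WT at CT0. The log2 change was 0.20 with time in WT (95% interval 0.01 to 0.38, limma adjusted p = 0.15) and 0.21 for KO against WT at CT0 (95% interval 0.03 to 0.39, limma adjusted p = 0.26). At CT12 KO differed from WT by -0.02 (95% interval -0.20 to 0.16). Fth1 lies at chr19:10057193-10059582 on the plus strand, and among the genes most like it were Ugt2b36, a glucuronosyltransferase, and Ces2a, a carboxylesterase (Pearson's r 0.85 and 0.83, as a description).

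Ferritin light chain, Ftl1, was steady in WT and more scattered in KO. In WT it was 1246, 1238 and 1179.8 RPKM at CT0 and 1328, 1365 and 1370.2 RPKM at CT12, without overlap. In KO it was 1754, 1069 and 1377 RPKM at CT0 and 1059, 1430.0 and 1194 RPKM at CT12. The SD was 1.72% to 2.96% of the mean in the WT groups and 15.3% to 24.5% in the KO groups, a difference in spread that was not tested. The log2 change with time in WT was 0.15 (95% interval -0.19 to 0.49, limma adjusted p = 0.59). KO differed from WT by 0.17 at CT0 and by -0.15 at CT12 (95% intervals -0.17 to 0.51 and -0.49 to 0.19), and without replicate 1 of KO at CT0 the first of these was -0.01.

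Light chain outnumbered heavy chain per length in all 12 samples, with a ratio of Ftl1 to Fth1 of 3.39 to 5.49. The highest ratio was in replicate 1 of KO at CT0, the sample with the highest Ftl1, Tfrc and Hamp2. Ftl1 lies at chr7:52713314-52715254 on the minus strand, and was most like Gnai3, a G protein subunit, Ssbp1 and Mrpl21, both of mitochondria (Pearson's r 0.92, 0.87 and 0.86, as a description). The genes most like Slc40a1 were Cops8, a signalosome subunit, Nupl2, a nuclear pore protein, and Manea, a mannosidase (Pearson's r 0.91, 0.88 and 0.88, as a description).

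Genes of the surrounding pathways were taken from lists, and up to 3 with the largest changes are named per list and comparison. Of 19 tested genes that control hepcidin, 1 rose and 2 fell from CT0 to CT12 in WT, 1 rose in KO, and 1 was higher in KO at CT12. Among all tested genes, 11.6% were called for time in WT, 2.43% for time in KO, 1.86% for genotype at CT0 and 10.5% for genotype at CT12. Il6ra, the interleukin 6 receptor through which inflammation raises hepcidin, was 4.33 ± 1.0 RPKM at CT0 and 12.4 ± 1.65 RPKM at CT12 in WT, against 2.604 ± 0.42 and 8.74 ± 0.38 RPKM in KO (SD, n = 3). Its log2 change was 1.33 in WT and 1.44 in KO (limma adjusted p = 1.2e-04 and 6.6e-04). Stat3, which carries that signal to the Hamp promoter, fell by 0.51 with time in WT, and Smad6, an inhibitor of SMAD signalling at 1.55 ± 0.19 RPKM in WT at CT0, fell by 0.47 (limma adjusted p = 0.035 and 0.046). The call of Stat3 was lost under 8 of 21 alternatives and that of Smad6 under 16 of 20. Tmprss6 is the protease that cleaves hemojuvelin and thereby holds hepcidin down. It was 158 ± 4.48 RPKM in KO and 117 ± 9.25 RPKM in WT at CT12, a log2 difference of 0.43 (SE 0.077, limma adjusted p = 0.0035). The difference was 0.23 at CT0 (limma adjusted p = 0.17) and 0.33 over both times (limma adjusted p = 0.0018).

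Of 15 tested genes of iron transport and handling, 1 rose and 5 fell with time in WT, 1 rose with time in KO, 1 was higher in KO at CT0, and 3 were higher and 1 lower in KO at CT12. These 6, 1, 1 and 4 calls stand beside 11.6%, 2.43%, 1.86% and 10.5% of all tested genes. Ceruloplasmin, Cp, the ferroxidase that works beside ferroportin, was 431 ± 33.7 RPKM in WT and 883 ± 74.2 RPKM in KO at CT12, a log2 difference of 1.03 (SE 0.11, limma adjusted p = 7.7e-05). At CT0 the difference was 0.47 (limma adjusted p = 0.048), a call lost under 16 of 21 alternatives. Slc39a8, a metal importer, was higher in KO at CT12 by 0.79 and fell with time in WT by 0.71 (limma adjusted p = 0.0012 and 0.0029). Its relative Slc39a14, the importer of iron not bound to transferrin, rose with time by 0.62 in WT and 0.67 in KO (limma adjusted p = 0.0097 and 0.023), the latter up to 0.080 with single samples left out. Steap2, a metalloreductase, was 2.31 ± 0.95 RPKM in KO and 5.14 ± 0.76 RPKM in WT at CT12 (log2 difference -0.92, limma adjusted p = 0.0074). At CT0 it was 2.57 ± 0.44 RPKM in KO and 5.18 ± 0.73 RPKM in WT, without overlap. That difference of -0.79 did not pass (limma adjusted p = 0.053), and over both times the difference was -0.86 (limma adjusted p = 0.0012).

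Steap3, the reductase that prepares iron for exit from endosomes, fell in WT from 5.01, 6.04 and 5.38 RPKM at CT0 to 2.12, 1.85 and 1.39 RPKM at CT12. The KO samples had 2.71, 4.91 and 3.73 RPKM at CT0 and 2.80, 3.11 and 3.92 RPKM at CT12. The WT samples separated by time and the KO samples overlapped. The log2 change was -1.22 in WT (SE 0.17, limma adjusted p = 7.8e-04), and the interaction was 1.08 (SE 0.24, limma adjusted p = 0.049), which lost the call under 15 of 20 alternatives.

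Among 6 genes of the iron regulatory protein system, 1 was higher and 1 lower in KO at CT12, and 1 fell with time in WT, where 10.5% and 11.6% of all tested genes were called. Aco1 encodes iron regulatory protein 1, which is a cytosolic aconitase when it holds an iron-sulfur cluster. It was 56.7 ± 4.71 RPKM in KO and 77.9 ± 3.96 RPKM in WT at CT12 (SD, n = 3), a log2 difference of -0.45 (limma adjusted p = 0.0070). The difference was -0.16 at CT0 (limma adjusted p = 0.46) and -0.31 over both times (limma adjusted p = 0.0086). Cul1, a scaffold of the ubiquitin ligase that removes iron regulatory protein 2, was higher by 0.34 in KO at CT12 and fell by 0.32 with time in WT (limma adjusted p = 0.028 and 0.038). Of 20 tested genes of iron-sulfur cluster assembly, 1 passed in any comparison of groups: Fdx1, a ferredoxin, rose by 0.47 with time in WT (limma adjusted p = 0.023). With single samples left out, the adjusted p reached 0.10 and 0.13 for the 2 changes of Cul1 and 0.084 for Fdx1.

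Among 21 tested genes of heme synthesis, transport and breakdown, 1 was lower in KO at CT0, 3 were higher and 3 lower in KO at CT12, and 1 rose and 1 fell with time in each genotype. The shares of all tested genes called were 1.86% and 10.5% for genotype at CT0 and CT12, and 11.6% and 2.43% for time in WT and KO. Alas1, the rate-limiting enzyme of heme synthesis in liver, was 36.04 ± 10.5 RPKM at CT0 and 572 ± 167 RPKM at CT12 in WT. In KO it was 51.6 ± 27.5 and 265 ± 107 RPKM (SD, n = 3). It rose by 3.95 in WT and 2.39 in KO on the log2 scale (limma adjusted p = 6.0e-05 and 0.012). The rise in KO lost its call with no filter on low values and with only the samples compared (adjusted p = 0.0805 and 0.060). Hmox1, the inducible heme oxygenase that frees iron from heme, fell by 0.71 in WT and by 0.74 in KO (limma adjusted p = 0.0060 and 0.020). It was also higher in KO, by 0.47 at CT12 and 0.48 over both times (limma adjusted p = 0.046 and 0.0065). At CT0 its difference of 0.50 did not pass (limma adjusted p = 0.094). Blvrb, a biliverdin reductase, was lower in KO at both times, by 0.50 at CT0 and 0.49 at CT12 (limma adjusted p = 0.021 and 0.0060). Hmox2, the constitutive heme oxygenase, and Uros, of heme synthesis, were higher in KO at CT12 by 0.56 and 0.54 (limma adjusted p = 0.0049 and 0.019). With single samples left out, the adjusted p reached 0.070 for the fall of Hmox1 in KO, 0.096 for Blvrb at CT0 and 0.079 for Uros.

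**Figure D4:**
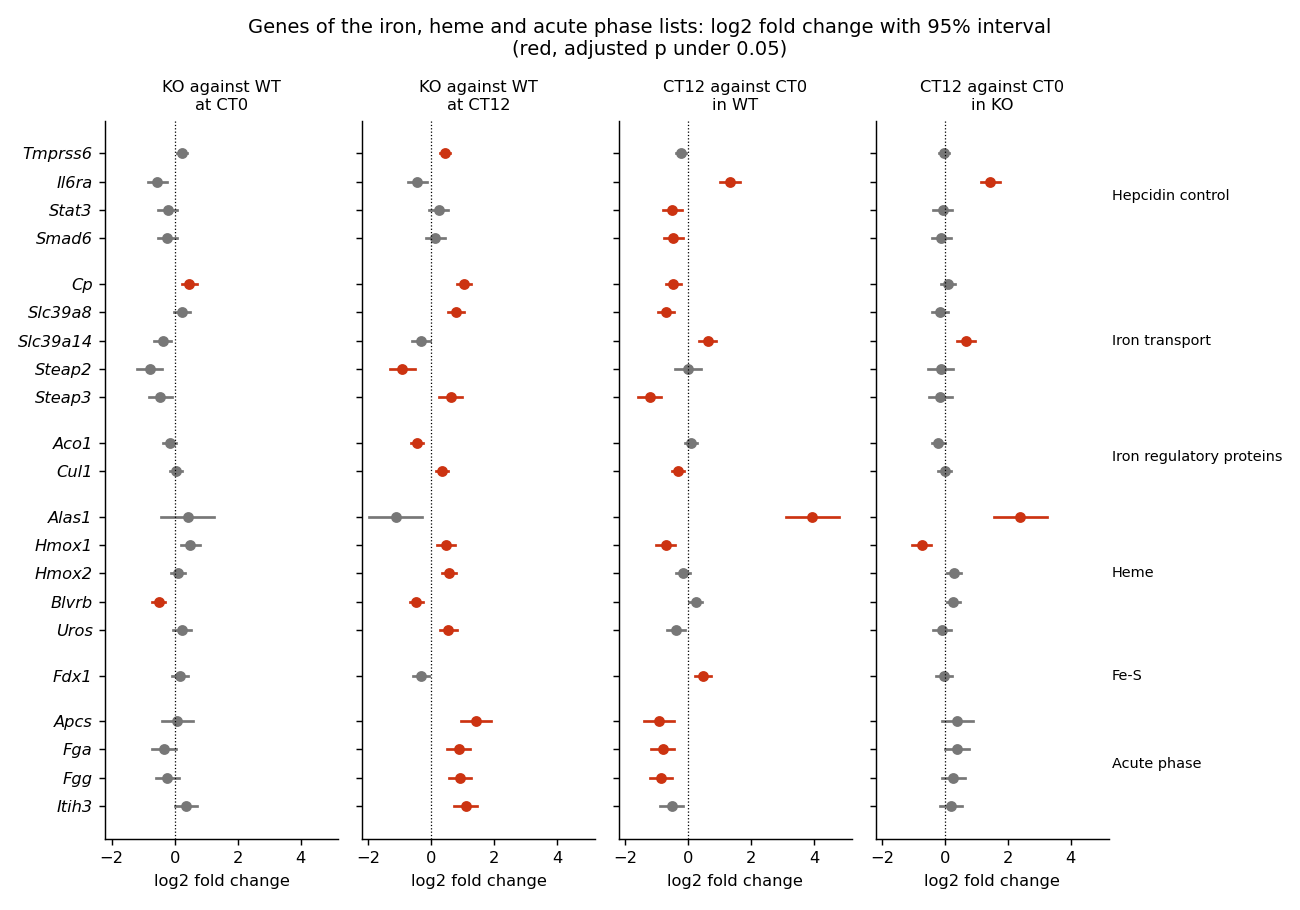
Log2 fold changes on the log2(RPKM + 1) scale of the 21 genes named from the pathway lists, in 4 comparisons of groups; points are estimates, lines are 95% intervals before adjustment, and red marks an adjusted p under 0.05. Il6ra, Alas1, Slc39a14 and Hmox1 are red in both comparisons of time, at 1.33, 3.95, 0.62 and -0.71 in WT. Cp is red in both comparisons of genotype, at 0.47 and 1.03, as is Blvrb, at -0.50 and -0.49.

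Hepcidin is also an acute phase gene, so the acute phase list is given beside it. Of 14 tested genes, 5 fell with time in WT and 5 were higher in KO at CT12, and none passed at CT0 or with time in KO, against 11.6%, 10.5%, 1.86% and 2.43% of all tested genes in the same order. Fgg and Fga, fibrinogen chains, fell in WT by 0.87 and 0.81, and Apcs, serum amyloid P, by 0.93 (limma adjusted p = 0.0060, 0.011 and 0.020). In KO at CT12, Apcs, Itih3 and Fgg were higher by 1.42, 1.09 and 0.91 (limma adjusted p = 0.0015, 0.0011 and 0.0040). The interactions of Fga, 1.20, and Fgg, 1.14, passed (limma adjusted p = 0.032 and 0.033). With single samples left out, the adjusted p of both interactions reached 0.087 and that of the fall of Apcs 0.075. The summed level of the 14 genes was 12309 to 17647 RPKM in WT at CT0, 7913 to 9369 RPKM in WT at CT12, 10452 to 13352 RPKM in KO at CT0 and 12148 to 18090.0 RPKM in KO at CT12. The sample with the highest Hamp had the highest of these sums in WT at CT0 and in KO at CT12 but the lowest in WT at CT12, and in KO at CT0 the sample with the highest sum had the lowest Hamp. The part of the acute phase level in the Hamp values was not tested.

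Markers of other cells moved as follows. Of all tested genes, 11.6% were called for time in WT and 2.43% for time in KO. For genotype, 1.86% were called at CT0 and 10.5% at CT12. Red cell transcripts, summed over 9 markers, amounted to 165 to 386 RPKM in WT at CT0, 112 to 195 RPKM in WT at CT12, 219 to 229 RPKM in KO at CT0 and 255 to 313 RPKM in KO at CT12. Of 6 that were tested, 2 fell with time in WT and 3 were higher in KO at CT12, while the other 3 were under 1 RPKM in all samples. Over both times, 1 of the 6 was lower in KO, where 11.5% of tested genes were called. Of the stellate cell markers 3 of 7 fell with time in WT and 1 of 7 in KO, and of the sinusoidal endothelial markers 1 of 8 fell in WT and none in KO. Over both genotypes, 4 of 8 endothelial, 3 of 7 stellate and 6 of 11 Kupffer cell markers were lower at CT12, beside 16.6% of all tested genes called in that comparison. Summed levels of the stellate list were 152 to 196 RPKM at CT0 and 115 to 127 RPKM at CT12 in WT, and 180.4 to 216 RPKM and 138 to 182 RPKM in KO. Summed levels of the endothelial list were 126 to 150.1 RPKM and 88.7 to 105 RPKM in WT, and 145 to 156 RPKM and 67.4 to 168 RPKM in KO. Of 4 tested cholangiocyte markers, 1 fell with time in WT and 1 was higher in KO at each time, and the 6 listed summed to 48.8 to 65.0 RPKM in WT at CT0, 27.2 to 50.02 RPKM in WT at CT12, 93.2 to 152 RPKM in KO at CT0 and 88.4 to 124 RPKM in KO at CT12. All 8 lymphocyte markers were under 1 RPKM in every sample. The part of these markers in the Hfe2 result was not tested.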

How the data were processed

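Total RNA of 12 mouse liver samples was sequenced from TruSeq libraries, and the authors deposited 1 table of RPKM values per sample for 46585 transcripts. The submitters' processing notes name TopHat2, bedtools 2.19.1 and mm9, without their roles, and the treatment of shared reads is not given in the sources used here. Groups came from the sample titles. Depth was recovered from RPKM multiplied by transcript length: 95.6% to 96.3% of values under 15.5 reads lay within 0.05 read of whole steps. Lengths and positions came from GENCODE vM1 on NCBIM37, which held 95.5% of rows.

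For each symbol the row with the highest mean was kept, and a gene entered the tests if some group averaged 1 RPKM or more. RPKM values are not counts, so log2(RPKM + 1) was fitted with limma 3.58.1 in R 4.3.3 (4 group means, eBayes with trend), which understates changes of low genes. P-values were adjusted by Benjamini-Hochberg over 10799 genes, with a threshold of 0.05, and the script was tested on simulated data. Intervals are 95% and unadjusted.

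The members, lists and tests were chosen with earlier results of these data known. Named were the members, Arntl, up to 3 called genes per list with the largest change in each comparison of groups, and the 3 genes most correlated with each member. A listed gene and a correlated gene are not reported here. Alternatives were a pseudocount of 0.1, no filter, 1 RPKM in every sample, quantile normalization, summed or longest transcript rows, only the samples compared, an unmoderated model, a replicate block, Hamp and Hamp2 added, and each sample left out. Tables were joined with pandas 2.3.3 in Python 3.11.15 and drawn with matplotlib 3.10.9.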

Additional observations from a re-analysis of the deposited data

Results flagged for a closer look

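The members, Arntl and the 21 genes named from the lists were looked up in the test of the interaction. The change with time differed between WT and KO for 4 of them, none among the 9 iron genes. Genes named only as most like a member were not part of this count. Arntl fell far more in WT, with an interaction of 2.50 (limma adjusted p = 7.2e-05). The fibrinogen chains Fga and Fgg had interactions of 1.20 and 1.14, and Steap3 had an interaction of 1.08 (limma adjusted p = 0.032, 0.033 and 0.049). With 3 samples a group, no test for samples that stand apart was made.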

How the results depend on the processing

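Hfe2 kept its fall with time in WT and over both genotypes past the threshold under every alternative run, with log2 changes of -0.79 to -0.66 and -0.74 to -0.66 when single samples were left out, and lost it in KO only with the 6 samples compared (-0.68, adjusted p = 0.058), where 0 members were called. Of 1303 refits of the 63 member results, 1245 kept their direction and their side of the threshold, 1 lost its call, 10 gained one and 47 changed sign, each of them for a difference that had not passed.

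The number of members called was 2 with an unmoderated model for KO against WT at CT0, for time in WT and for the interaction, and 1 for genotype over both times. That model called 1495, 2771, 1323 and 2620 of all 10799 tested genes in the same order. It was also 1 for genotype over both times with summed transcript rows, where Hfe was at 0.32 (adjusted p = 0.047). With the replicate block, 2 members were called for time over both genotypes, Hfe2 and Hamp2 (-1.29, adjusted p = 0.030), and the block changed no other call of a member. Over all tested genes, same replicate numbers did not deviate together on average (mean r 0.008, range -0.066 to 0.139, against -0.004 for different numbers). A correlation over all genes cannot show a pairing that acts on few of them, which was not tested. Leaving out single samples gave 1 to 2 members called for time over both genotypes, with Hfe joining without replicate 3 of WT at CT0 (adjusted p = 0.043) and Tfrc without replicate 1 of KO at CT0 (adjusted p = 0.028).

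Among differences that had not passed, these changed sign: Tfrc for KO against WT at CT12 was 0.026 with summed and 0.006 with longest rows, and under quantile normalization Hfe2 was -0.005 for the interaction, Slc40a1 was 0.006 for time in WT and -0.009 for genotype over both times, and Ftl1 was -0.027 for genotype over both times and 0.088 for time over both genotypes. With each sample left out in turn, Tfrc ran from -0.273 to 0.106 for KO against WT at CT12, -0.109 to 0.537 for time in KO and -0.006 to 0.317 for genotype over both times. Tfr2 ran from -0.024 to 0.05 for time over both genotypes. Hamp2 ran from -0.569 to 0.538 for KO against WT at CT12. Hfe ran from -0.014 to 0.275 for the interaction. Hfe2 ran from -0.043 to 0.114 for the interaction. Slc40a1 ran from -0.105 to 0.063 for KO against WT at CT0, -0.121 to 0.197 for KO against WT at CT12, -0.162 to 0.156 for time in WT, -0.11 to 0.157 for time in KO, -0.068 to 0.09 for genotype over both times, -0.072 to 0.103 for time over both genotypes and -0.105 to 0.213 for the interaction. Fth1 ran from -0.089 to 0.04 for KO against WT at CT12 and -0.102 to 0.027 for time in KO. Ftl1 ran from -0.009 to 0.348 for KO against WT at CT0, -0.351 to 0.005 for time in KO, -0.081 to 0.098 for genotype over both times and -0.101 to 0.077 for time over both genotypes. The cause was not tested.

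Of 34 results of genes named from the lists, 16 passed under every alternative. Fga lost its interaction under 13 of 20 alternatives, as did Fgg, and Steap3 under 15. The number of all genes called depends on the processing: with no filter on low values 61 were called for KO against WT at CT0 (201 as reported), 749 for time in WT (1252), 61 for time in KO (262) and 64 for the interaction (161), and with only the samples compared 107 were called at CT0 and 26 for time in KO. Requiring 1 RPKM in every sample gave 117 at CT0. With an unmoderated model and unadjusted p, 1323 to 3329 genes were called in the 7 comparisons. With single samples left out, the numbers were 76 to 208 for KO against WT at CT0, 728 to 1279 at CT12, 660 to 1394 for time in WT, 65 to 260 for time in KO and 87 to 146 for the interaction.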
